A study of Mus musculus with 3 samples.

Results

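The anti-apoptotic *BCL2* family was followed across the stages of splenic B cells. It was taken as the rows of the count tables with the symbols *Bcl2*, *Bcl2l1*, *Bcl2l2*, *Mcl1*, *Bcl2a1a*, *Bcl2a1b* and *Bcl2a1d*, which makes 7 of the 32285 genes. RNA was measured by droplet-based 3′ sequencing of single splenic B cells, 10 days after 1 immunization with SRBCs (sheep red blood cells), an antigen that drives the germinal center (GC) reaction. There was 1 library each for 3′RR-*BCL2*, Igκ-*BCL2* and WT mice. In 3′RR-*BCL2* mice, a human *BCL2* cassette with both of its promoters, integrated at random, is driven by the core enhancers of the IgH 3′ regulatory region (3′RR). In Igκ-*BCL2* mice, the same cassette replaces the Jκ segments of the Igκ locus, upstream of its enhancers. WT mice carry neither, all are on a mixed B6/129 background, and ages and allele numbers of the sequenced mice are not given in the labels. Both models were built to express human *BCL2*, which is not among the rows, and all *Bcl2* values below belong to the row of the mouse gene. Whether reads of the human cassette were counted in that row was not tested.

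The 3′RR-*BCL2* library held 7579 cell barcodes with 45539172 UMIs, the Igκ-*BCL2* library 7034 with 37433924 and the WT library 11269 with 62777659, where a UMI (unique molecular identifier) stands for 1 captured RNA molecule. By the methods of the study, B cells of all genotypes were sorted magnetically, whereas the labels give sorted B cells as the source of the WT library alone and whole tissue as that of the others. Between 15 and 24 barcodes were shared by any pair of libraries. Levels are given as UMIs per 1000000 UMIs of the cells of a stage (UPM). In resting-like cells, *Xist*, which coats the inactive X of female cells, stood at 1684 UPM in 3′RR-*BCL2*, 0.15 in Igκ-*BCL2* and 0.199 in WT, so for 3′RR-*BCL2* against either other library sex and genotype cannot be told apart. *Ddx3y*, a gene of the Y chromosome, stood at 0.036 UPM in 3′RR-*BCL2*, 201 in Igκ-*BCL2* and 205 in WT. Summed T cell, natural killer, erythroid and neutrophil markers stayed at or under 50.6 UPM in every stage and library. Macrophage markers reached 8.77 UPM except in activated-like WT cells, with 132, where *Lyz2* in 2 of 614 cells gave nearly all of it. Dendritic cell markers (*Siglech*, *Bst2*, *Flt3*, *Xcr1* and *Zbtb46*) stood between 304 and 435 UPM in interferon-activated-like cells and between 35.5 and 139 elsewhere. In interferon-activated-like cells, *Siglech*, *Xcr1* and *Zbtb46* had no UMI in any library, and *Bst2* and *Flt3* alone gave this level. Whether it marks dendritic cells was not tested.

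Proteins of this family sit at the outer mitochondrial membrane and hold in check the effectors BAX and BAK1, which otherwise open that membrane and start apoptosis. They also bind BH3-only proteins such as BIM (gene *Bcl2l11*), PUMA (*Bbc3*) and NOXA (*Pmaip1*), which carry death signals. *Bcl2* is known to be high in resting B cells and low in GC B cells, *Mcl1* is needed for B cell survival, *Bcl2l1* encodes BCL-xL, *Bcl2l2* encodes BCL-w, and the *Bcl2a1* genes encode A1, which is induced by B cell receptor and NF-κB signaling. In follicular lymphoma, human *BCL2* comes under control of immunoglobulin enhancers.

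The members lie on 5 chromosomes of GRCm38. *Bcl2* lies at chr1:106538178-106714274 (− strand), *Bcl2l1* at chr2:152780668-152831728 (−), *Bcl2l2* at chr14:54883377-54888234 (+) and *Mcl1* at chr3:95658788-95663176 (+). *Bcl2a1a* (chr9:88956900-88962419, +), *Bcl2a1b* (chr9:89199209-89207827, +) and *Bcl2a1d* (chr9:88723285-88731914, −) are recent copies of each other. *Bcl2*, *Bcl2l2* and *Bcl2a1b* are marked in the annotation as overlapping another locus, so a part of their UMIs is uncertain.

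The copies matter for the counts, because a 3′ read that fits several genes is not counted. The GENCODE transcripts of *Bcl2a1a*, *Bcl2a1b* and *Bcl2a1d* have 819, 817 and 863 bases, and *Bcl2a1a* is identical with *Bcl2a1b* at 97.9% of aligned positions and with *Bcl2a1d* at 93.8%. Their last 30 bases on GRCm38 are shown, with the AATAAA signal for poly(A) addition left in lower case like the rest (chr9:88962390-88962419 for *Bcl2a1a*, chr9:89207798-89207827 for *Bcl2a1b* and chr9:88723285-88723314 for *Bcl2a1d*).
Bcl2a1a: gaataaattactagtatttgtttctgtaca
Bcl2a1b: atgaataaattactagtatttgtttctgta
Bcl2a1d: gaataaattactagtatttgtttctgtaca
The last 87 bases of *Bcl2a1a* and *Bcl2a1d* are identical. Of the 226 windows of 75 bases in the last 300 bases of each transcript, 114 (50.4%) of *Bcl2a1a*, 90 (39.8%) of *Bcl2a1b* and 13 (5.75%) of *Bcl2a1d* occur in no other transcript of the 3. The UMIs of each copy therefore leave out the reads it shares, most so for *Bcl2a1d*, so *Bcl2a1b* and *Bcl2a1d* cannot be ranked by their UMIs. *Bcl2a1a* had the largest share of such windows in the last 300 bases. It had 11 UMIs among all barcodes of 3′RR-*BCL2*, 6 of Igκ-*BCL2* and 14 of WT, against 3336, 2090 and 5834 of *Bcl2a1b*. The row of *Bcl2a1c*, with 10, 8 and 34 UMIs, is not among the members, and its sequence was not compared.

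The promoters of the copies are near-identical as well. Whether this bears on the stages in which *Bcl2a1b* and *Bcl2a1d* moved was not tested. The stretches run 5′ to 3′ and come from the RefSeq promoters of GRCm38 (chr9:88956753-88956855, + strand, for *Bcl2a1a*, chr9:89199062-89199164, +, for *Bcl2a1b* and chr9:88731915-88732011, −, for *Bcl2a1d*). Capitals mark matches to TGANTCA, a loose AP-1-like motif in which N is any base, and to GAGGAAGT, an ETS-like motif. Both were searched on both strands without overlap between them. The matches to TGANTCA read TGAATCA here.
Bcl2a1a: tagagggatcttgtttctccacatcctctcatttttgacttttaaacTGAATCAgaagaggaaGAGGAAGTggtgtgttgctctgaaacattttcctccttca
Bcl2a1b: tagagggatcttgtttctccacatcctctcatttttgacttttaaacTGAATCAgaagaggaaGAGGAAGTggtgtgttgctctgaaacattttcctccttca
Bcl2a1d: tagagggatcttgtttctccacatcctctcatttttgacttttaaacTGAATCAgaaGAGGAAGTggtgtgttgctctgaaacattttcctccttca
All 103 bases of *Bcl2a1a* and *Bcl2a1b* agree, and *Bcl2a1d* has 97 of the 103, lacking 1 repeat of 6 bases. The match to GAGGAAGT is found in 2.44% and that to TGANTCA in 6.75% of 32851 RefSeq promoter windows of the mouse genome. Of the members, only these 3 held either. A κB motif was found in 5.0% of windows and, of the members, in 1 window of *Bcl2l1* only. These matches describe letters and show no binding.

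Cells were placed in stages by markers that include no member. There were 35, 41 and 82 transitional-like cells in 3′RR-*BCL2*, Igκ-*BCL2* and WT, and 4737, 4999 and 8098 resting-like cells. Interferon-activated-like cells numbered 57, 36 and 46, marginal zone-like cells 83, 14 and 154, and activated-like cells 311, 239 and 614, always in the same order of libraries. GC-like cells numbered 424, 186 and 58, and plasma-like cells 42, 41 and 28. The leading genes of most stages held several of their own markers, such as *Mef2b*, *S1pr2* and *Rgs13* in GC-like cells. Those of plasma-like cells held 2 of their own, *Jchain* and *Slpi*, beside immunoglobulin genes, those of resting-like cells also held 2, and activated-like cells were led by *Lyz2* ahead of *Ccnd2* and *Srm*. Of plasma-like cells, 6, 17 and 7 devoted at least 10% of their UMIs to immunoglobulin genes. The class thus holds few antibody-secreting cells beside more cells with few immunoglobulin UMIs, in unlike proportions by library.

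*Mcl1* was the most abundant member by UMIs in every stage and library, except in Igκ-*BCL2* plasma-like cells, where *Bcl2* had 241 UMIs and *Mcl1* 239. UMIs of 3′ sequencing count molecules and are not divided by gene length. *Bcl2* and *Bcl2a1b* followed, with an order that changed with the stage. *Bcl2l1*, *Bcl2l2* and *Bcl2a1a* were rare, with 166, 155 and 11 UMIs among all barcodes of 3′RR-*BCL2*, 168, 66 and 6 of Igκ-*BCL2*, and 165, 309 and 14 of WT.

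**Figure D1:**
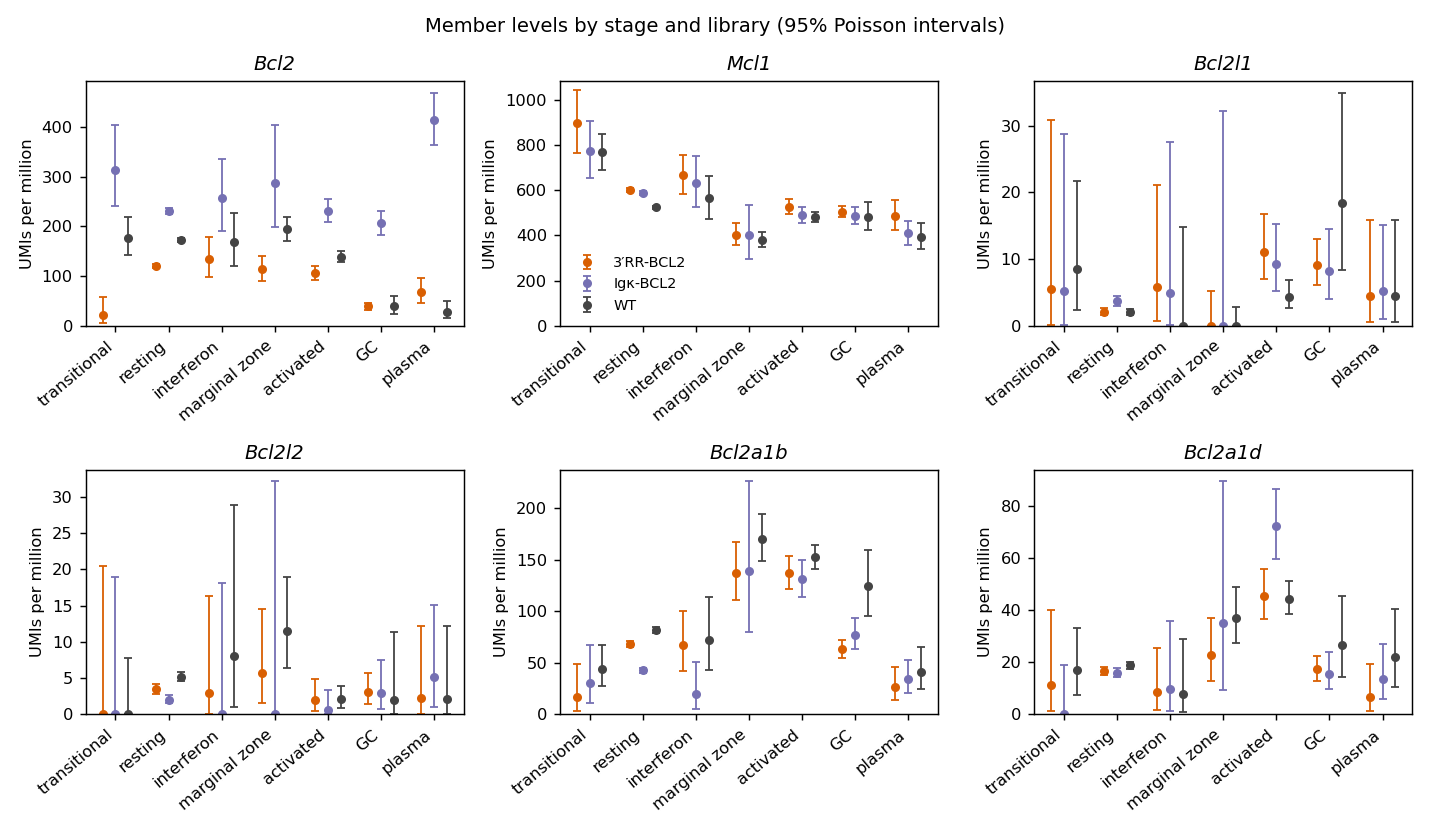
Level of 6 members (y axis, UMIs per 1000000 UMIs of the cells of a stage) by stage (x axis) in 3′RR-*BCL2*, Igκ-*BCL2* and WT, with exact 95% Poisson intervals that cover counting error. *Bcl2* of GC-like and plasma-like cells lies near or under 68.2 in 3′RR-*BCL2* and WT and at 206 and 414 in Igκ-*BCL2*, and *Bcl2a1b* peaks in marginal zone-like and activated-like cells of each library.

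Stage differences fitted over the libraries were tested with edgeR on UMIs summed per stage and library. Sums with more UMIs of a gene weigh more in the fit, so a fitted difference is not a plain mean of the libraries. The library was a block, and Benjamini-Hochberg adjustment ran over 7648 genes. The 3 libraries are of different genotype and came from separate mice. These p-values set the fitted difference against the spread left over all stages and libraries. They do not measure whether each library shows the difference. *Bcl2*, *Mcl1*, *Bcl2a1b* and *Bcl2a1d*, 4 of the 7 members, passed the filter on low counts. Levels carry exact 95% Poisson intervals, and ratios an exact 95% interval from the 2 UMI counts, conditional on their sum. Both cover counting error only, and no test between genotypes was possible with 1 library each.

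*Bcl2*, which keeps resting lymphocytes alive, was lower in GC-like than in resting-like cells, and the size of this difference varied by library. In GC-like cells it stood at 38.8 UPM in 3′RR-*BCL2* (95% interval 32.3 to 46.3, 124 UMIs), 206 in Igκ-*BCL2* (183 to 232, 279 UMIs) and 38.8 in WT (23.4 to 60.6, 19 UMIs). In resting-like cells it stood at 120 in 3′RR-*BCL2* (interval 116 to 124), 231 in Igκ-*BCL2* (225 to 237) and 172 in WT (168 to 176). The GC-like over resting-like ratio was 0.324 in 3′RR-*BCL2* (interval 0.269 to 0.388), 0.892 in Igκ-*BCL2* (0.788 to 1.01) and 0.226 in WT (0.136 to 0.352). The intervals of 3′RR-*BCL2* and WT overlap each other, and neither overlaps that of Igκ-*BCL2*.

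Over the libraries, *Bcl2* fell in GC-like cells (log2 fold change −1.13 ± 0.31, SE, adjusted p = 0.0041 in edgeR). It was the 1 member called of the 4 tested in this contrast where 43.3% of all genes were called. The call rested on the 3′RR-*BCL2* library and on the tool. The adjusted p was 0.166 without that library and 0.077 in DESeq2, and over 11 alternatives it ran between 4.06e-13 and 0.166, with a log2 fold change between −1.80 and −0.82. Without Igκ-*BCL2* the log2 fold change was −1.80.

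The WT value rests on few UMIs and few cells. Of 58 GC-like WT cells, 9 held a *Bcl2* UMI, and the top 10% of cells held 84.2% of the UMIs. In 3′RR-*BCL2*, 94 of 424 GC-like cells held a UMI, and in Igκ-*BCL2* 124 of 186. After thinning each cell to 2000 UMIs, the share of GC-like cells with a *Bcl2* UMI was 7.31% in 3′RR-*BCL2* (Clopper-Pearson 95% interval 5.02 to 10.2), 33.9% in Igκ-*BCL2* (27.1 to 41.2) and 1.72% in WT (0.0436 to 9.24). The matching shares of resting-like cells were 20.2%, 34.1% and 27.7%. Without thinning, the shares of GC-like cells were 22.2%, 66.7% and 15.5%, at median depths of 6795, 7326 and 7641 UMIs. No class of these libraries is known to lack *Bcl2*, so the share that free RNA gives could not be read off.

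The choice of GC-like cells moved the WT value most. With 1 marker fewer, *Bcl2* stood at 46.1 UPM in 3′RR-*BCL2*, 198 in Igκ-*BCL2* and 85.0 in WT. With 1 marker more, it stood at 35.1 in 3′RR-*BCL2*, 233 in Igκ-*BCL2* and 6.48 in WT, the last from 2 UMIs in 35 cells. Within GC-like cells, dividing cells had 34.9 UPM in 3′RR-*BCL2*, 260 in Igκ-*BCL2* and 54.4 in WT, against 40, 199 and 30.9 in non-dividing cells. None of the 4 members tested was called between dividing and non-dividing cells in edgeR, where 10.3% of all genes were, and 0 of 4 were past an unadjusted p of 0.05 or called in DESeq2.

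The *Bcl2* level of plasma-like cells varied widely between libraries, and its size depended on the choice of cells. The level was 68.2 UPM in 3′RR-*BCL2* (46.3 to 96.8, 31 UMIs), 414 in Igκ-*BCL2* (363 to 469, 241 UMIs) and 28.5 in WT (15.2 to 48.7, 13 UMIs). Against resting-like cells of the same library the ratio was 0.569 in 3′RR-*BCL2* (interval 0.386 to 0.810), 1.79 in Igκ-*BCL2* (1.57 to 2.04) and 0.165 in WT (0.0881 to 0.283). Only the Igκ-*BCL2* library had more *Bcl2* in plasma-like than in resting-like cells, and whether the libraries differ beyond counting error could not be tested. The ratio of Igκ-*BCL2* to WT in plasma-like cells, 14.5, was 2.81 with 1 marker fewer and 1.78 with stages assigned from all UMIs, and that of 3′RR-*BCL2* to WT, 2.39, was 0.641 and 0.618. The class also differed in make-up. Cells with at least 10% immunoglobulin UMIs were 6 of 42 in 3′RR-*BCL2*, 17 of 41 in Igκ-*BCL2* and 7 of 28 in WT. In those cells alone the ratio to WT was 7.16 for Igκ-*BCL2* and 0.946 for 3′RR-*BCL2*. How far the make-up accounts for the levels was not tested.

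Over the libraries, *Bcl2* was not called in plasma-like against resting-like cells (log2 fold change 0.23 ± 0.34, SE, adjusted p = 0.63 in edgeR), nor was any other of the 4 members tested, against 34.5% of all genes. At an unadjusted p of 0.05 and in DESeq2 the count was also 0 of 4. The fitted value of *Bcl2* lay above 0 although its ratio to resting-like cells lay below 1 in 3′RR-*BCL2* (0.569) and WT (0.165). Without Igκ-*BCL2* it was lower (−1.30, adjusted p = 0.0039), and without WT it was higher (0.81, adjusted p = 0.034), within a range of 0.0039 to 0.991 over 13 alternatives. Against GC-like cells, *Bcl2* was higher in plasma-like cells (1.36 ± 0.37, adjusted p = 0.014 in edgeR), the 1 member called of 4, against 12.1% of all genes. *Bcl2*, *Bcl2a1b* and *Mcl1*, 3 of 4, were past an unadjusted p of 0.05, and DESeq2 called *Bcl2a1b* lower and *Mcl1* higher. The *Bcl2* call was lost without Igκ-*BCL2* (0.50, adjusted p = 0.57), without 3′RR-*BCL2* (1.30, adjusted p = 0.13), in DESeq2 (1.29, adjusted p = 0.17) and with library totals (0.81, adjusted p = 0.074). Its adjusted p ran between 4.24e-12 and 0.57.

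The immunoglobulin-rich plasma-like cells, a choice made after seeing the data, can be given cell by cell. In the 6 cells of 3′RR-*BCL2* there were 0 to 4 *Bcl2* UMIs, in the 17 of Igκ-*BCL2* 0 to 21, and in the 7 of WT 0 to 6. Per 1000000 UMIs of a cell, the *Bcl2* medians were 45.4 in 3′RR-*BCL2*, 509 in Igκ-*BCL2* and 0 in WT, while those of *Mcl1* were 539, 348 and 448. For *Bcl2*, 16 of the 17 Igκ-*BCL2* cells lay above all 6 cells of 3′RR-*BCL2* and above 6 of the 7 of WT, and the *Mcl1* values overlapped throughout. These cells are not replicates of a genotype.

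**Figure D2:**
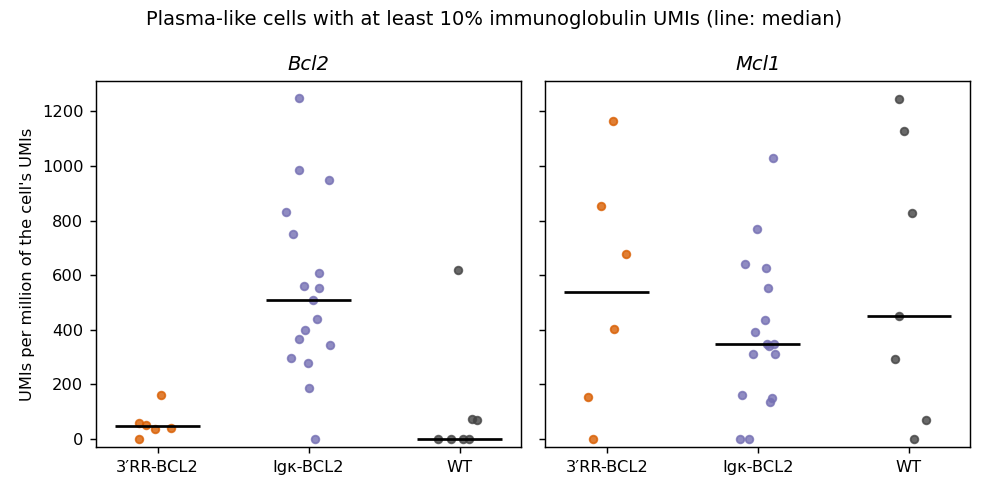
*Bcl2* and *Mcl1* (y axis, UMIs per 1000000 UMIs of the cell) in each plasma-like cell with at least 10% immunoglobulin UMIs, 1 point per cell, in 3′RR-*BCL2* (6 cells), Igκ-*BCL2* (17) and WT (7), with the median as a line. The *Bcl2* medians are 45.4, 509 and 0, and the *Mcl1* medians 539, 348 and 448.

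In the other stages, *Bcl2* was highest in Igκ-*BCL2* and lowest in 3′RR-*BCL2*. In transitional-like cells, the recent arrivals from bone marrow, it stood at 22.2 UPM in 3′RR-*BCL2* (6.04 to 56.8, 4 UMIs), 314 in Igκ-*BCL2* (240 to 404) and 177 in WT (141 to 220). The 3′RR-*BCL2* value lies below both others without overlap and comes from 35 cells. In marginal zone-like cells it stood at 113 in 3′RR-*BCL2* (interval 89.9 to 141), 288 in Igκ-*BCL2* (198 to 404) and 194 in WT (171 to 219). In activated-like cells it stood at 105 in 3′RR-*BCL2* (interval 91.8 to 120), 231 in Igκ-*BCL2* (208 to 256) and 139 in WT (128 to 150). Interferon-activated-like cells had 134, 256 and 168, and the interval of WT overlapped both that of 3′RR-*BCL2* and that of Igκ-*BCL2*. *Bcl2* was called in none of these 4 contrasts with resting-like cells in edgeR, with adjusted p between 0.67 and 0.95. In interferon-activated-like cells none of the 4 members tested was called, where 3.49% of all genes were, and 0 of 4 were past an unadjusted p of 0.05 or called in DESeq2.

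Set against WT, the 3′RR-*BCL2* library had a *Bcl2* ratio of 0.125 in transitional-like cells (0.0333 to 0.332), 0.696 in resting-like cells (0.668 to 0.725), 0.585 in marginal zone-like cells (0.449 to 0.755) and 0.758 in activated-like cells (0.647 to 0.887). It was 1.0 in GC-like cells (0.614 to 1.72) and 2.39 in plasma-like cells (1.22 to 4.98). The ratio of Igκ-*BCL2* to WT was 1.77 in transitional-like (1.25 to 2.49), 1.34 in resting-like (1.30 to 1.39), 1.48 in marginal zone-like (1.0 to 2.14) and 1.66 in activated-like cells (1.46 to 1.90). It was 5.31 in GC-like cells (3.34 to 8.95) and 14.5 in plasma-like cells (8.33 to 27.7). For Igκ-*BCL2* both of these ratios lay above those of the earlier stages. For 3′RR-*BCL2* they did as well, but this turned with the choice of cells. With 1 marker fewer its ratio was 0.542 in GC-like and 0.641 in plasma-like cells, against 0.704 in resting-like cells. With stages assigned from all UMIs it was 0.435 and 0.618, against 0.708. The ratio of 3′RR-*BCL2* in transitional-like cells was 0.528 with 1 marker fewer.

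**Figure D3:**
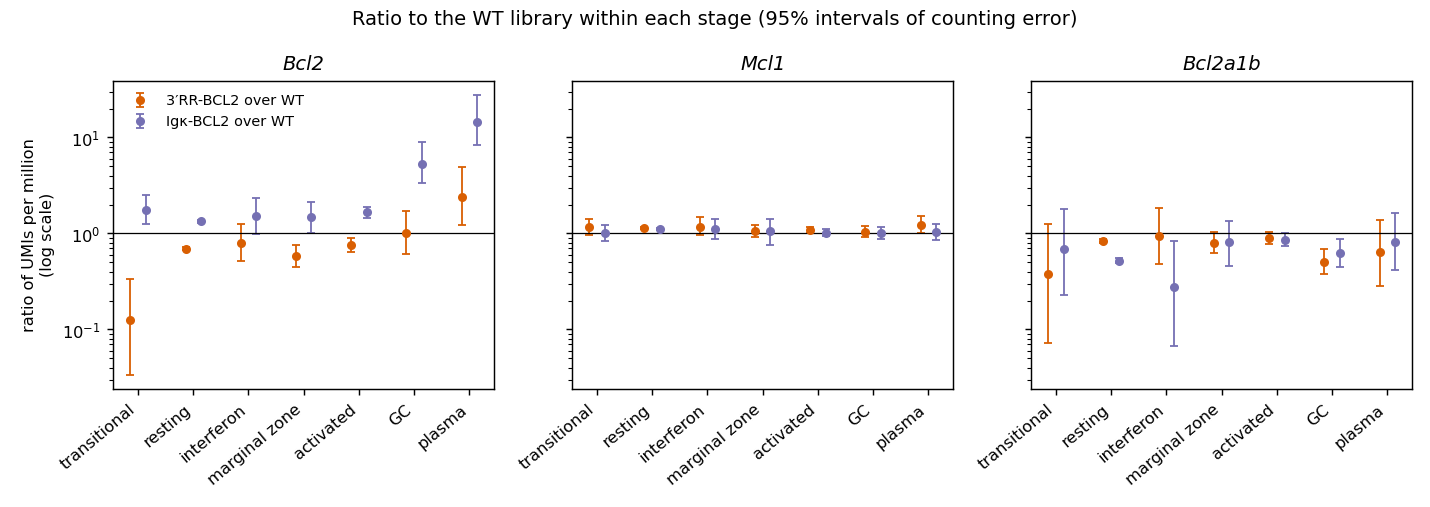
Level of 3′RR-*BCL2* and of Igκ-*BCL2* cells over that of WT cells (ratio, y axis, log scale) for *Bcl2*, *Mcl1* and *Bcl2a1b* by stage (x axis), with exact 95% intervals of counting error and a line at a ratio of 1. *Bcl2* spans 0.125 to 14.5, whereas *Mcl1* stays between 1.0 and 1.24.

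*Mcl1*, a short-lived guard of all B cell stages, differed little between libraries and more between stages. In transitional-like cells it stood at 898 UPM in 3′RR-*BCL2*, 772 in Igκ-*BCL2* and 769 in WT, and in resting-like cells at 602, 588 and 525. In marginal zone-like cells it stood at 404 in 3′RR-*BCL2*, 401 in Igκ-*BCL2* and 381 in WT, the lowest stage of each library. GC-like cells had 504, 487 and 482, and plasma-like cells 488, 410 and 394. Over the 7 stages, the ratio to WT lay between 1.05 and 1.24 for 3′RR-*BCL2* and between 1.0 and 1.12 for Igκ-*BCL2*.

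Over the libraries, *Mcl1* was higher in transitional-like (0.40 ± 0.12, adjusted p = 0.037) and lower in marginal zone-like cells (−0.45 ± 0.12, adjusted p = 0.012), both against resting-like cells in edgeR. The transitional-like call held in 3 of 11 alternatives, with adjusted p up to 0.979. The marginal zone-like call held in 8 of 11 and was lost without 3′RR-*BCL2*, without WT and with stages assigned from all UMIs, with adjusted p up to 0.357. In GC-like cells the difference was −0.25 ± 0.11 (adjusted p = 0.069 in edgeR), and it was called in DESeq2. In transitional-like cells *Mcl1* was the 1 member called of 4, where 4.92% of all genes were.

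The A1 genes *Bcl2a1b* and *Bcl2a1d* were higher in marginal zone-like and activated-like than in resting-like cells. *Bcl2a1b* stood in activated-like cells at 137 UPM in 3′RR-*BCL2* (interval 122 to 154), 131 in Igκ-*BCL2* (114 to 150) and 153 in WT (141 to 165), against 68.2, 42.9 and 82.0 in resting-like cells. *Bcl2a1d* stood in activated-like cells at 45.4 in 3′RR-*BCL2* (interval 36.7 to 55.5), 72.1 in Igκ-*BCL2* (59.6 to 86.4) and 44.4 in WT (38.3 to 51.1), against 16.4, 16.0 and 18.8 in resting-like cells. Both genes were higher in the activated-like cells of each library, without overlap of the intervals. In edgeR *Bcl2a1b* rose by a log2 fold change of 1.16 ± 0.14 (adjusted p = 3.2e-07) and *Bcl2a1d* by 1.61 ± 0.16 (adjusted p = 6.7e-09), 2 of 4 members where 25.5% of all genes were called. Both calls held in all 11 alternatives. Without the 2 cells that held *Lyz2* in WT, *Bcl2a1b* stood at 153 and *Bcl2a1d* at 44.6 there.

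In marginal zone-like cells, which respond fast to blood-borne antigen, *Bcl2a1b* stood at 138 UPM in 3′RR-*BCL2* (interval 112 to 168), 139 in Igκ-*BCL2* (79.7 to 227) and 171 in WT (149 to 195). It was 2.02, 3.25 and 2.08 times as high there as in resting-like cells of the same library. *Bcl2a1d* stood at 22.7 in 3′RR-*BCL2*, 34.9 in Igκ-*BCL2* (4 UMIs) and 36.9 in WT. In edgeR *Bcl2a1b* rose by 1.26 ± 0.18 (adjusted p = 6.6e-06) and *Bcl2a1d* by 0.97 ± 0.26 (adjusted p = 0.016). With *Mcl1*, 3 of 4 members were called where 9.32% of all genes were. The *Bcl2a1b* call held in all 11 alternatives. That of *Bcl2a1d* was lost in 4, with adjusted p up to 0.413 (with 1 marker more, in DESeq2, without 3′RR-*BCL2* and without WT).

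In GC-like cells, *Bcl2a1b* stood at 63.2 UPM in 3′RR-*BCL2* (interval 54.8 to 72.6), 77.6 in Igκ-*BCL2* (63.4 to 93.9) and 125 in WT (95.4 to 160), so that WT lay above both others. The contrast with resting-like cells was not called (0.34 ± 0.17, adjusted p = 0.098 in edgeR). It was called higher in 3 of 11 alternatives (1 marker fewer, all UMIs and without 3′RR-*BCL2*). Against resting-like cells of the same library the ratio was 0.927 in 3′RR-*BCL2* (interval 0.798 to 1.07), 1.81 in Igκ-*BCL2* (1.47 to 2.21) and 1.52 in WT (1.16 to 1.96). In dividing GC-like cells the spread of *Bcl2a1b* levels was wider, with 39.0 in 3′RR-*BCL2*, 133 in Igκ-*BCL2* and 193 in WT. In plasma-like cells *Bcl2a1b* stood at 26.4, 34.3 and 41.6, and *Bcl2a1d* at 6.60, 13.7 and 21.9. For *Bcl2a1b* the log2 fold change from resting-like cells was −0.46 ± 0.27 (adjusted p = 0.19 in edgeR), and it changed sign with the markers asked for. It was called lower without Igκ-*BCL2* and with library totals, and higher with 1 marker fewer, from all UMIs and with at least 8 markers. *Bcl2a1d* was not called from resting-like cells (0.141 ± 0.395, adjusted p = 0.82 in edgeR). It was called higher in 3 of 13 alternatives, the same settings as for *Bcl2a1b*, with log2 fold changes of up to 2.05. In transitional-like cells *Bcl2a1b* was at 16.6, 30.9 and 44.3 (−1.06 ± 0.32, adjusted p = 0.052 in edgeR), and it was called lower in 7 of 11 alternatives.

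*Bcl2l1*, which encodes BCL-xL, was highest in activated-like and GC-like cells in both *BCL2* libraries and in GC-like cells in WT. In GC-like cells it stood at 9.08 UPM in 3′RR-*BCL2* (29 UMIs), 8.13 in Igκ-*BCL2* (11) and 18.4 in WT (9), and in activated-like cells at 11.1, 9.24 and 4.37. In resting-like cells it stood at 2.08, 3.68 and 1.99. No UMI was found in marginal zone-like cells, which allows levels of up to 4.25 UPM in 3′RR-*BCL2*, 26.2 in Igκ-*BCL2* and 2.31 in WT, at 3 UMIs per library. Without the filter on low counts, edgeR called *Bcl2l1* higher in GC-like cells (1.94, adjusted p = 3.1e-06) and in activated-like cells (1.64, adjusted p = 5.0e-05), and it was not tested with the filter. With 1 marker fewer it passed the filter and was called in GC-like cells (1.90, adjusted p = 1.1e-05) and not in activated-like cells (0.64, adjusted p = 0.16).

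*Bcl2l2*, which encodes BCL-w, was highest in marginal zone-like cells of WT, with 11.5 UPM (6.46 to 19.0, 15 UMIs), against 5.67 in 3′RR-*BCL2* (4 UMIs) and no UMI in the 14 cells of Igκ-*BCL2*. In resting-like cells it stood at 3.48 in 3′RR-*BCL2*, 2.03 in Igκ-*BCL2* and 5.19 in WT. *Bcl2a1a* gave 5, 4 and 6 UMIs in resting-like and 1, 1 and 4 in activated-like cells, and none in the other stages. Its highest level was 0.919 UPM, in activated-like WT cells. The stages without a UMI allow levels of up to 0.939 UPM in GC-like 3′RR-*BCL2* cells and up to 26.2 UPM in marginal zone-like Igκ-*BCL2* cells, at 3 UMIs per library.

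**Figure D4:**
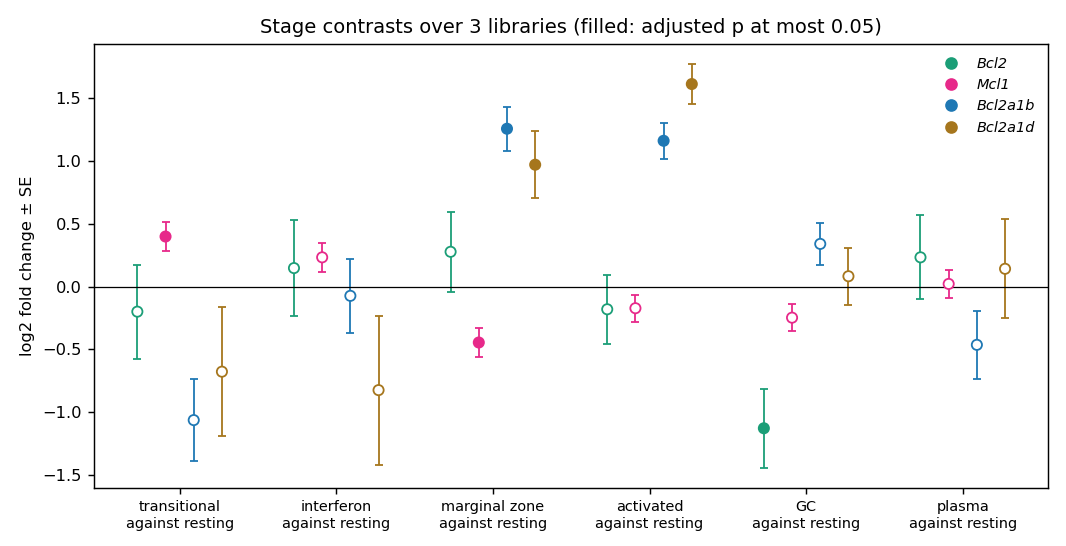
Log2 fold change (y axis, ± SE from the edgeR fit) of the 4 members tested in each stage against resting-like cells (x axis), over 3 libraries, with filled points for an adjusted p of at most 0.05. *Bcl2* falls in GC-like cells by 1.13, and *Bcl2a1b* and *Bcl2a1d* rise in activated-like cells by 1.16 and 1.61.

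Between libraries, members past a 1.5-fold difference from WT were counted among those with at least 20 UMIs in both sums together. In resting-like cells there were 0 of 6 in 3′RR-*BCL2*, against 10.6% of all genes. In Igκ-*BCL2* there were 3 of 6, against 15.1%, namely *Bcl2l1* (ratio 1.85, 1.37 to 2.49), *Bcl2l2* (0.390, 0.285 to 0.527) and *Bcl2a1b* (0.523, 0.489 to 0.559). In activated-like cells there was 1 of 5 in 3′RR-*BCL2*, *Bcl2l1* at 2.54 (1.32 to 4.94), against 12.8%. In Igκ-*BCL2* there were 3 of 5, against 15.5%, namely *Bcl2* at 1.66, *Bcl2l1* at 2.12 (1.0 to 4.4) and *Bcl2a1d* at 1.63 (1.28 to 2.06). These shares differ in the genes they name, and the small numbers of members give no rate to set against all genes.

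In GC-like cells, 3 of 5 members were past 1.5-fold in 3′RR-*BCL2*, against 27.2% of all genes. They were *Bcl2l1* (0.494), *Bcl2a1b* (0.507, 0.379 to 0.687) and *Bcl2a1d* (0.648), all lower than in WT. In Igκ-*BCL2* there were 4 of 5, against 32.1%, with *Bcl2* higher (5.31) and *Bcl2l1* (0.442), *Bcl2a1b* (0.622, 0.450 to 0.868) and *Bcl2a1d* (0.584) lower. Only the intervals of *Bcl2* and *Bcl2a1b* lay on 1 side of 1. In plasma-like cells there were 2 of 3 in 3′RR-*BCL2*, against 34.4%, and 1 of 3 in Igκ-*BCL2*, against 49%. In transitional-like cells there were 2 of 3 in 3′RR-*BCL2* (28.6% of all genes) and 1 of 3 in Igκ-*BCL2* (29.5%). In marginal zone-like cells there were 2 of 4 (18%) and 0 of 4 (45.9%), and in interferon-activated-like cells 0 of 3 (25.7%) and 2 of 3 (28.3%).

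Taken as a share of the UMIs of all 7 members, *Mcl1* made up 46.5% to 94.2%. *Bcl2* made up 6.11% in 3′RR-*BCL2*, 25.9% in Igκ-*BCL2* and 5.60% in WT GC-like cells, and 11.4%, 46.9% and 5.78% in plasma-like cells. In resting-like cells it made up 14.7%, 26.1% and 21.4%. The A1 genes together made up 22.1% in 3′RR-*BCL2*, 21.8% in Igκ-*BCL2* and 24.0% in WT activated-like cells, and 10.4%, 6.67% and 12.5% in resting-like cells. The sum of all members was 636, 797 and 693 UPM in GC-like cells, 596, 882 and 493 in plasma-like cells, and 812, 884 and 805 in resting-like cells. Igκ-*BCL2* thus had the largest sum in each of these 3 stages.

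**Figure D5:**
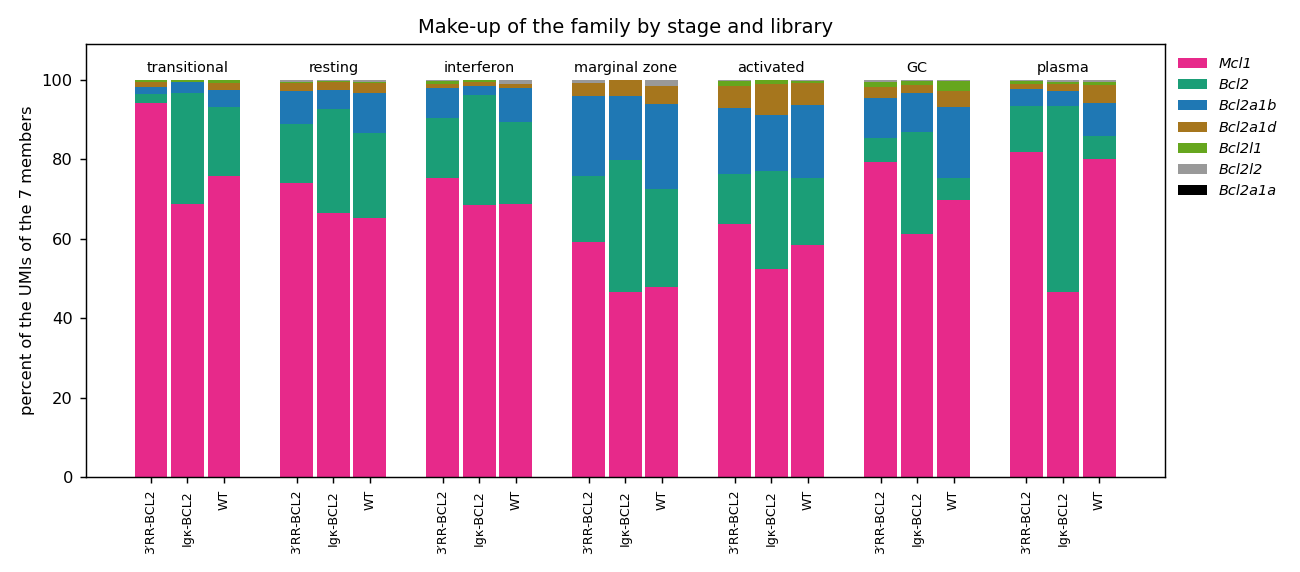
Make-up of the family (y axis, percent of the UMIs of the 7 members) in each stage and library (x axis, in each stage 3′RR-*BCL2*, Igκ-*BCL2* and WT). *Mcl1* takes 46.5% to 94.2% of each bar, *Bcl2* 46.9% in Igκ-*BCL2* plasma-like cells and 2.33% in 3′RR-*BCL2* transitional-like cells.

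The partners of the family were read from the same edgeR fit. Of the effectors *Bax*, *Bak1* and *Bok*, 2 were tested, and *Bak1* was higher in GC-like than in resting-like cells (1.13 ± 0.17), with 46.0 UPM in 3′RR-*BCL2*, 36.2 in Igκ-*BCL2* and 38.8 in WT, against 18.5, 18 and 19.3. Of 8 BH3-only genes, 6 were tested, and 3 were higher and 1 lower in GC-like cells, where 43.3% of all genes were called. These were *Bbc3* (1.62 ± 0.26), *Bad* (1.29 ± 0.19) and *Bid* (1.16 ± 0.19), and *Pmaip1* (−0.56 ± 0.16). *Bbc3* stood at 20, 33.2 and 20.4 UPM in GC-like cells, against 8.6, 8.7 and 4.6 in resting-like cells. *Bak1*, *Bad*, *Bbc3* and *Bid* rose in GC-like cells, where *Bcl2* was lower, a call lost without 3′RR-*BCL2* and in DESeq2. They also rose in plasma-like cells, where *Bcl2* was not called, and *Bid* rose in marginal zone-like and activated-like cells. *Bax*, *Bcl2l11* and *Bmf* were not called in GC-like cells. The median of the BH3-only genes was 0.78 in GC-like cells, beside 0.00 for all genes.

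Of 14 regulators, 2 were higher and 6 lower in GC-like cells, where 43.3% of all genes were called, with a median of −0.38. *Bcl6*, the GC repressor, rose by 1.48 ± 0.13, and *Fbxw7*, a ubiquitin ligase subunit that targets MCL1, by 0.91 ± 0.13. *Foxo3* fell by 1.39 on the log2 scale, and the NF-κB subunits *Rel*, *Nfkb2*, *Nfkb1*, *Relb* and *Rela*, which induce A1, fell by 0.68, 0.67, 0.54, 0.52 and 0.46. *Rel* stood at 504 UPM in 3′RR-*BCL2*, 563 in Igκ-*BCL2* and 442 in WT GC-like cells, against 842, 746 and 809. Without 3′RR-*BCL2*, *Pmaip1* (−0.37), *Nfkb2* (−0.35), *Relb* (−0.40), *Nfkb1* (−0.49) and *Rela* (−0.53) were not called, the last pair with log2 fold changes near those over all libraries. Without Igκ-*BCL2*, *Rela* (−0.36) was not called.

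In plasma-like against resting-like cells, *Bak1* (1.18 ± 0.27), *Bax* (0.58 ± 0.15), *Bbc3* (2.32 ± 0.35), *Bid* (1.14 ± 0.31), *Bcl2l11* (1.03 ± 0.22), *Bad* (0.92 ± 0.33) and *Fbxw7* (0.73 ± 0.17) were higher in edgeR. *Pmaip1* (−0.87 ± 0.24), *Nfkb1* (−0.64 ± 0.16) and *Rel* (−1.22 ± 0.14) were lower, in a contrast in which 34.5% of all genes were called. *Tnfrsf17*, the receptor BCMA, helped to choose these cells and is not a finding. With library totals the median gene stood at −0.40, and *Bad*, *Bax*, *Bid* and *Fbxw7* were not called. Without 3′RR-*BCL2*, *Bad* (0.47), *Bak1* (1.02), *Pmaip1* (−0.70) and *Nfkb1* (−0.61) were not called. Without WT, *Bid* (0.28), *Bak1* (0.96), *Bax* (0.44) and *Nfkb1* (−0.50) were not, and without Igκ-*BCL2*, *Bad* (0.99) was not. *Bcl2l11*, which encodes the BH3-only protein BIM that BCL2 binds, stood at 77.0 UPM in 3′RR-*BCL2*, 223 in Igκ-*BCL2* and 54.8 in WT plasma-like cells, against 73.6, 98.0 and 68.1. Without Igκ-*BCL2* its log2 fold change was 0.18 and was not called either.

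The genes most like each member were those with the highest correlation of log2(UPM + 5) over the 21 sums of stage and library, among 5745 genes. For *Bcl2* these were *Wls* (r = 0.81), *Pkd1* (0.77) and *Unc50* (0.76), for *Mcl1* *Mapk9* (0.89), *Tifa* (0.89) and *Plk2* (0.88), and for *Bcl2l1* *Mcm7* (0.82), *Ndufs6* (0.81) and *Prpf19* (0.78). For the summed *Bcl2a1* genes they were *Eef1a1* (0.86), *Rpl29* (0.85) and *Rpl22l1* (0.85). The sums share libraries, depth and stages, so these values only describe the sums.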

How the data were processed

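The tables deposited by the authors hold raw UMI counts (genes by cell barcodes) from Cell Ranger 6.1.1, with builds mm10 and hg38 named in the submitters' processing notes. The members and lists were chosen with earlier results of these data known. Kept cells had between 800 and 4500 detected genes, no more than 20000 UMIs, a mitochondrial share of 8% or less, a ribosomal protein share of 10% or more, and fewer than 2 UMIs of *Cd3* and of *C1q* genes (6561 cells of 3′RR-*BCL2*, 6242 of Igκ-*BCL2* and 9932 of WT), while upper limits and the ribosomal minimum were dropped for plasma-like cells. Median depths were 5291, 4838 and 5031 UMIs. Cells were thinned to 2000 UMIs, leaving out shallower cells (165, 135 and 178), and assigned by markers: at least 4 of 13 for plasma-like, 3 of 12 for GC-like (dividing with 2 of 10), 3 of 8 for transitional-like, 3 of 9 for marginal zone-like, 3 of 10 for activated-like, 3 of 9 for interferon-activated-like and 3 of 8 for resting-like cells. Cells meeting rules of several stages (86, 29 and 36) were left out as mixed, and 637, 534 and 648 stayed unassigned. No doublet caller was run, and the sources used here name no such step.

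Levels were taken from all UMIs of the cells of a stage. Stages were compared with edgeR 4.0.16 (limma 3.58.1, R 4.3.3), quasi-likelihood test, TMM factors, filterByExpr, library as a block, and called at an adjusted p of at most 0.05. DESeq2 1.42.0 was an alternative. Intervals, thinning and plots were made with scipy 1.17.1, numpy 2.4.6, pandas 2.3.3 and matplotlib 3.10.9 under Python 3.11.15. Coordinates came from the GENCODE annotation of GRCm38 and promoters from RefSeq. On simulated counts for GC-like against resting-like cells (6765 genes), 95.5% of 89 genes changed 2-fold and 100% of 89 changed 4-fold were recovered, with false calls for 0.182% of the others. On simulated Poisson counts, intervals of Igκ-*BCL2* over WT ratios held the true ratio for 95.4% of 13215 genes in resting-like cells. The share was 96.8% of 7569 genes in GC-like and 96.6% of 5353 in plasma-like cells. These counts were drawn from the model behind the intervals, so this checks the computation only and not the spread between cells or mice.

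Named genes were the members, partners and regulators called in the GC-like or plasma-like contrast, and the 3 genes most like each member among those with a mean of at least 20 UMIs per 1000000 UMIs. Alternatives were 1 marker fewer or more, stages from all UMIs, looser limits on cells (500 detected genes or more and a mitochondrial share of 15% or less), upper limits for plasma-like cells, totals without immunoglobulin, ribosomal and mitochondrial genes, library totals in place of TMM, no filter on low counts, DESeq2, thinning to 1000 or 4000 UMIs, and leaving out each library. Strict plasma markers (at least 8 of 13) and immunoglobulin-rich plasma-like cells (at least 10% of UMIs) were added after seeing the data.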

Additional observations from a re-analysis of the deposited data

Results flagged for a closer look

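*Bcl2* moved in opposite directions in the libraries in a pair of stages, which was not tested, as there was 1 library per genotype. Its plasma-like over resting-like ratio was 0.569 in 3′RR-*BCL2*, 1.79 in Igκ-*BCL2* and 0.165 in WT. Its transitional-like over resting-like ratio was 0.185 in 3′RR-*BCL2*, 1.36 in Igκ-*BCL2* and 1.03 in WT, and the 3′RR-*BCL2* value rests on 4 UMIs in 35 cells.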

How the results depend on the processing

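Of the values recomputed under the alternatives, 269 of 368 log2 fold changes of members kept their direction and side of the threshold, 32 passed it newly, 21 no longer did and 46 changed sign. Of the levels, 567 of 798 moved by less than counting error, and of the ratios 255 of 305. The genotypes came from separate mice and could not be paired, whereas stages were compared with the library as a block. Marginal zone-like, transitional-like and plasma-like values rest on few cells, which limits their precision. Where no cause follows from fewer cells or libraries, the cause was not tested. Library totals in place of TMM put the median gene at −0.40 in plasma-like against resting-like and −0.45 in plasma-like against GC-like cells, with 711 genes higher and 2782 lower in place of 1526 and 1112, and 298 and 2426 in place of 575 and 348. They put 232 genes higher and 116 lower in transitional-like cells in place of 181 and 195 (median gene 0.12), 277 and 357 in marginal zone-like cells in place of 430 and 283, and the median gene of interferon-activated-like cells at −0.12.

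Genes called against resting-like cells were 87 (1 marker more), 658 (all UMIs) and 95 to 309 (without 1 library) for transitional-like cells in place of 376. They were 189 to 715 without 1 library for marginal zone-like cells in place of 713, and for activated-like cells 959 (1 marker fewer), 1204 (all UMIs) and 625 to 1618 (without 1 library) in place of 1952. Without 1 library they were 1701 to 3188 for GC-like cells in place of 3312 and 1549 to 2566 for plasma-like cells in place of 2638, and 1212 with upper limits for plasma-like cells. Plasma-like against GC-like cells gave 1639 (1 marker fewer), 2846 (all UMIs), 262 (upper limits), 2304 (strict markers), 2724 (library totals) and 491 to 698 (without 1 library) in place of 923. Dividing against non-dividing cells gave 460 (1 marker more), 291 (all UMIs), 3015 (looser filter) and 115 to 890 (without 1 library) in place of 790. Among the counts without 1 library, the lowest was without 3′RR-*BCL2* in most contrasts and without WT for plasma-like against resting-like cells.

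The *Bcl2* ratio of 3′RR-*BCL2* to WT in GC-like cells, 1.0, was 0.542 with 1 marker fewer, 5.42 with 1 more and 0.435 from all UMIs. That of Igκ-*BCL2* to WT, 5.31, was 2.33, 36.0 and 2.26. In plasma-like cells the ratio of 3′RR-*BCL2* to WT, 2.39, was 0.641 with 1 marker fewer, 1.04 with 1 more, 0.618 from all UMIs and 0.946 in immunoglobulin-rich cells. That of Igκ-*BCL2* to WT, 14.5, was 2.81 with 1 marker fewer, 1.78 from all UMIs, 8.01 with upper limits and 7.16 in immunoglobulin-rich cells. With 1 marker fewer, the *Bcl2a1b* ratio of Igκ-*BCL2* to WT in interferon-activated-like cells was 1.08, and the *Bcl2a1d* ratio of 3′RR-*BCL2* to WT in marginal zone-like cells was 1.07. With 1 marker more, the GC-like *Bcl2a1d* ratio was 1.15 for 3′RR-*BCL2* and 1.09 for Igκ-*BCL2*. From all UMIs, the plasma-like *Bcl2a1b* ratio of 3′RR-*BCL2* was 1.01.

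The following log2 fold changes changed sign. For *Bcl2*, the transitional-like difference was −0.39 to 0.10 without 1 library, the interferon-activated-like one −0.26 with 1 marker more and the activated-like one 0.0076 from all UMIs. The plasma-like difference from resting-like cells was −0.023 with 1 marker fewer, −0.014 in DESeq2, −0.29 with library totals and −1.30 to 0.81 without 1 library. Between dividing and non-dividing cells it was −0.48 with 1 marker fewer, −0.75 with 1 more, −0.20 from all UMIs, −0.17 with the looser filter and −0.045 to 0.36 without 1 library. For *Mcl1*, the plasma-like difference from resting-like cells was −0.053 from all UMIs, −0.18 with upper limits, −0.0045 without immunoglobulin, ribosomal and mitochondrial genes, −0.023 with no filter on low counts, −0.41 with library totals (adjusted p = 0.006) and −0.066 to 0.085 without 1 library, and that from GC-like cells −0.19 with library totals.

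For *Bcl2a1b*, the interferon-activated-like difference was 0.32 from all UMIs and the GC-like one −0.026 with 1 marker more. The plasma-like difference was 0.47 (1 marker fewer), 0.85 (all UMIs) and 0.73 (strict markers) from resting-like cells, with adjusted p of 0.0464, 6.0e-06 and 0.0413 in edgeR. From GC-like cells it was 0.13 (all UMIs) and 0.42 (strict markers). Between dividing and non-dividing cells it was −0.23 (1 marker fewer), −1.53 (1 more), −0.030 (all UMIs), −0.064 (looser filter) and −0.33 to 0.99 (without 1 library). For *Bcl2a1d*, the plasma-like difference from resting-like cells was −0.22 (1 marker more), −0.083 (upper limits), −0.29 (library totals) and −0.12 to 0.45 (without 1 library). With 1 marker fewer, from all UMIs and with strict markers it kept its sign and was called higher. The plasma-like difference from GC-like cells was −0.34 (1 marker more), −0.30 (looser filter), −0.14 (upper limits), −0.40 (library totals) and −0.16 to 0.37 (without 1 library). It was called higher in 2 of 13 alternatives (all UMIs and strict markers), with values of up to 1.99. Between dividing and non-dividing cells it was 0.43 (looser filter) and −0.80 to 0.97 (without 1 library).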
